A study of Arabidopsis thaliana with 9 samples.

Results

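The genes described here are 6 genes of Arabidopsis thaliana with much lower transcript levels in pollinated than in unpollinated pistils: AT2G33850, AT3G12000 for an S-locus related glycoprotein, AT1G62510 of a lipid transfer family, AT2G05540 for a glycine-rich protein, AT1G16950 and AT4G19430. Each had 1 probe set on the array, so the 6 genes were 6 of 22746 probe sets tested, and none of the 6 probe sets was shared with another gene. The genes were selected on the measured log2 difference between pollinated and unpollinated pistils, with both kinds of pollen, and on a bright signal without pollination. Those differences and levels are therefore given as descriptions, without a test. The difference between the kinds of pollen was tested. The choice did not use it directly, but required a steep fall with both kinds of pollen, which favours a small difference.

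Every pistil was at stage 14 and carried ms1 (Male sterile 1) in the Ler-0 ecotype, a mutation that leaves the flower without functional pollen of its own. In 1 group of 3 arrays the pollen had lost 3 MYB genes together, through the alleles myb97-1, myb101-4 and myb120-3, and in another 3 arrays it was wild type. Both kinds of pollen were of the Col-0 ecotype and were left on the pistil for 8 hours. The remaining 3 arrays held ms1 pistils that had received no pollen, for which the labels give no matching wait. The 3 samples of a group are labelled as biological replicates, each a collection of 100 pistils. RNA came from the pistil together with the pollen tubes inside it, so a lower level cannot be assigned to 1 tissue, and in such bulk samples fewer cells of a type and less RNA per cell cannot be told apart.

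The pistil receives pollen on the papillae of the stigma, and the tubes then grow through the transmitting tract of the style and ovary towards the ovules. Secreted and wall proteins of these tissues meet the pollen and the tube directly. AT3G12000, also known as AtS1, has been described as a gene of the stigma papillae. Its Brassica relative SLR1 is a secreted stigma glycoprotein with a part in pollen adhesion. Lipid transfer proteins are small, secreted, cysteine-rich proteins, one of which helps pollen tubes adhere to the style in lily. Many glycine-rich proteins are structural parts of plant cell walls. No role is given here for AT2G33850, AT1G16950 and AT4G19430. MYB97, MYB101 and MYB120 are transcription factors of the pollen tube.

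The values were RMA intensities on a linear scale, and differences were taken on the log2 scale. Median intensities of the arrays ran from 109.9 to 114.6 with mutant pollen, from 112.2 to 117 with wild-type pollen and from 103.3 to 104.7 in unpollinated pistils. Mutant array 2 and wild-type array 1 were each closest to the other over all probe sets (Pearson's r = 0.9975), across the line between the groups, while each of the other 7 arrays was closest to an array of its own group. The comparison of the 2 kinds of pollen is therefore also given without mutant array 2. A gene is called measured here if a probe set lists it alone and the reference annotation holds it. Of the 22746 probe sets, 8730 had no listed gene and 503 had several. Genes not counted as measured may therefore still be on the array. All 12 measured pollen markers, of 19 in the list, rose with both kinds of pollen. With dim probe sets left out, so with fewer tested, 4 rose. The summed intensity of the 12 was 7065.5 to 8759.9 with mutant pollen, 8076.7 to 9553.7 with wild-type pollen and 232.7 to 285.1 in unpollinated pistils. MYB97, MYB101 and MYB120 had no named probe set here, so the genotype of the pollen was not checked on the arrays. No probe set was listed at 0, the lowest value on any array being 6.4. The part of pollen RNA in the differences below was not tested.

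AT2G33850 was the brightest of the 6 probe sets in unpollinated pistils and had the steepest difference of all probe sets with 1 listed gene. Its intensity was 72, 96.3 and 98.4 with mutant pollen, 73.5, 91.1 and 86.2 with wild-type pollen, and 3236, 3875.1 and 2320.1 in unpollinated pistils. Every pollinated array lay under 100, and the lowest unpollinated array was 23.6 times the highest array with mutant pollen and 25.5 times the highest with wild-type pollen. The log2 difference from unpollinated pistils was -5.13 ± 0.18 with mutant pollen and -5.21 ± 0.18 with wild-type pollen (SE, n = 3 per group), which left 2.86% and 2.71% of the unpollinated level.

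AT3G12000, the stigma papilla gene, was also low on every pollinated array. It had intensities of 21.9, 20.1 and 22.5 with mutant pollen, 17.6, 20.1 and 25.5 with wild-type pollen, and 324, 494.6 and 300.2 in unpollinated pistils. The pollinated groups overlapped each other, and neither overlapped the unpollinated group. The log2 difference from unpollinated pistils was -4.08 ± 0.18 with mutant pollen and -4.13 ± 0.18 with wild-type pollen, a signal 16.9-fold and 17.5-fold lower. With 16 units added before log2 the differences were -3.34 and -3.36, so these folds depend on that setting.

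AT1G62510, for a small protein of the lipid transfer family, had intensities of 14, 13.2 and 11.4 with mutant pollen, 14.5, 13.8 and 13.3 with wild-type pollen, and 186.1, 118.6 and 126.2 in unpollinated pistils. The log2 difference in signal was -3.46 ± 0.15 with mutant pollen and -3.34 ± 0.15 with wild-type pollen. It is not known whether the pollinated signal was above background, and with 16 units added before log2 the differences were -2.44 and -2.39, so no exact fold in transcript level is given. Even so, the lowest unpollinated array was 8.47 times the highest array with mutant pollen.

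The glycine-rich protein gene AT2G05540 had intensities of 38.9, 21.7 and 24.8 with mutant pollen, 24.1, 24.3 and 24.6 with wild-type pollen, and 814.6, 670.9 and 254.2 in unpollinated pistils. Mutant array 1 was the highest pollinated array, and unpollinated array 3 was far below the others of its group, yet still 6.53 times mutant array 1. The log2 difference in signal from unpollinated pistils was -4.23 ± 0.37 with mutant pollen (18.8-fold lower) and -4.41 ± 0.37 with wild-type pollen (21.3-fold lower). With 16 units added before log2 the differences were -3.61 and -3.73, so these folds also depend on that setting.

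AT1G16950 had intensities of 11.7, 11.6 and 14.2 with mutant pollen, 12, 13.3 and 12.9 with wild-type pollen, and 272.5, 178.5 and 166.6 in unpollinated pistils. Its pollinated arrays were among the dimmest values of the 6 genes, and again the pollinated and unpollinated arrays did not overlap. The log2 difference in signal was -4.01 ± 0.17 with mutant pollen and -3.98 ± 0.17 with wild-type pollen. The limit given for AT1G62510 holds here too, and with 16 units added the differences were -2.93 and -2.92.

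AT4G19430 kept a somewhat higher signal, with intensities of 39.1, 47.5 and 48.8 with mutant pollen, 52, 41.9 and 44 with wild-type pollen, and 639.1, 916.5 and 372.2 in unpollinated pistils. The lowest unpollinated array was still 7.63 times the highest array with mutant pollen. The log2 difference was -3.74 ± 0.26 with mutant pollen (13.4-fold lower) and -3.72 ± 0.26 with wild-type pollen (13.2-fold lower).

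**Figure D1:**
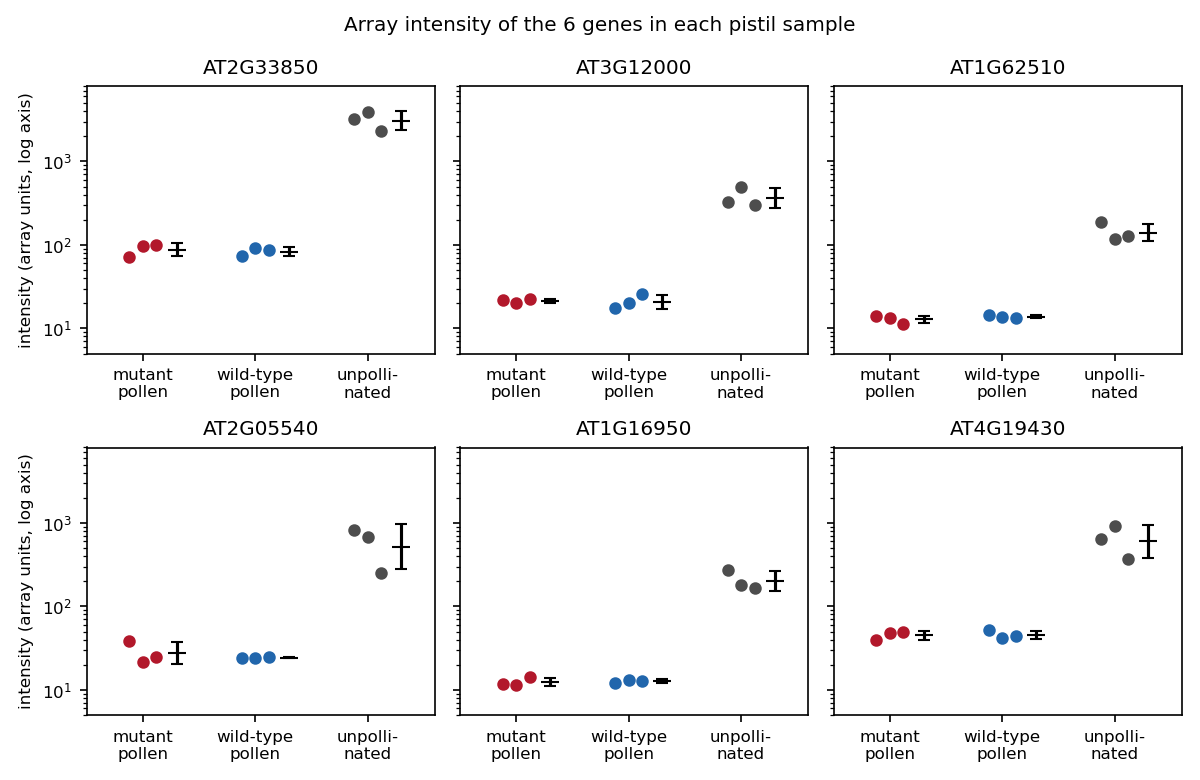
Intensity of each gene on a log axis, in arbitrary array units, with 1 point per array and 3 arrays per group. The short line with bars at the right of each group is the mean of the log2 values with its SD. Pollinated arrays lie at 98.4 or below in every panel and unpollinated arrays at 118.6 or above.

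The 6 genes thus had no overlap between pollinated and unpollinated arrays, with either kind of pollen. This follows from how they were picked. Of all probe sets, 23.4% lay lower without overlap with mutant pollen and 24.9% with wild-type pollen. The median log2 difference of the 6 genes was -4.05 in both comparisons, against 0.01 with mutant pollen and 0.004 with wild-type pollen over all probe sets. Both comparisons use the same unpollinated arrays.

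Checked against the arrays, the name of bright genes held for AT2G33850 and only in part for the others. On the unpollinated arrays AT2G33850 stood at percentiles 97.4 to 98.5 of all probe sets, AT4G19430 at 77.5 to 91.5, AT3G12000 at 72.7 to 83.0 and AT2G05540 at 69.0 to 90.4. AT1G16950 stood at percentiles 59.0 to 70.7 and AT1G62510 at 52.2 to 61.7, which is little above the middle of the array. Probe sets differ in how strongly they bind their target, so such positions do not rank transcript amounts.

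On the pollinated arrays the positions of the 6 probe sets spread over the lower part of the range. With mutant pollen AT2G33850 was still at percentiles 43.3 to 47.7, near the middle, and with wild-type pollen at 43.1 to 46.4. AT4G19430 was at percentiles 35.3 to 37.9 with mutant pollen and 36.1 to 38.7 with wild-type pollen. AT2G05540 and AT3G12000 were at percentiles 23.1 to 35.2 over both groups. AT1G62510, at percentiles 7.1 to 17.4, and AT1G16950, at 7.7 to 15.2, lay below the lower quartile of every pollinated array. No detection calls were used, so the background is not known for these or for the other genes of the 6. Adding 16 intensity units before log2, which shrinks differences between dim values, also left log2 differences of -3.34 for AT3G12000 and -3.61 for AT2G05540 with mutant pollen and of -3.36 and -3.73 with wild-type pollen. Each of these 4 genes moved by more than 1.5-fold. AT2G33850 stayed at -4.89 and -4.96 and AT4G19430 at -3.34 and -3.32, so the order of the 6 genes depends on this setting.

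Ranked among all 22746 probe sets, the 6 genes were not the 6 steepest. With wild-type pollen they took ranks 3 (AT2G33850), 9 (AT2G05540), 12 (AT3G12000), 17 (AT1G16950), 21 (AT4G19430) and 28 (AT1G62510). Of the 28 probe sets down to AT1G62510, 12 had no listed gene and 1 had several, and of the 15 with 1 listed gene 9 were not among the 6. Those 9 were AT1G12010 for an ACC oxidase at a log2 difference of -4.66, AT1G33055 at -4.29, AT2G20560 at -4.19, AT4G27450 at -4.05, the peroxidase gene AT5G19880 at -3.71, AT1G22890 at -3.50, PAP85 at -3.49, AT1G54050 at -3.41 and AT1G26800 at -3.34. Just beyond AT1G62510 came a probe set with no listed gene at -3.33, and the next with 1 listed gene was AT5G51440 at -3.18. With mutant pollen the 6 genes took ranks 3, 10, 13, 14, 20 and 21, and 4 other probe sets with 1 listed gene lay above AT1G62510.

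**Figure D2:**
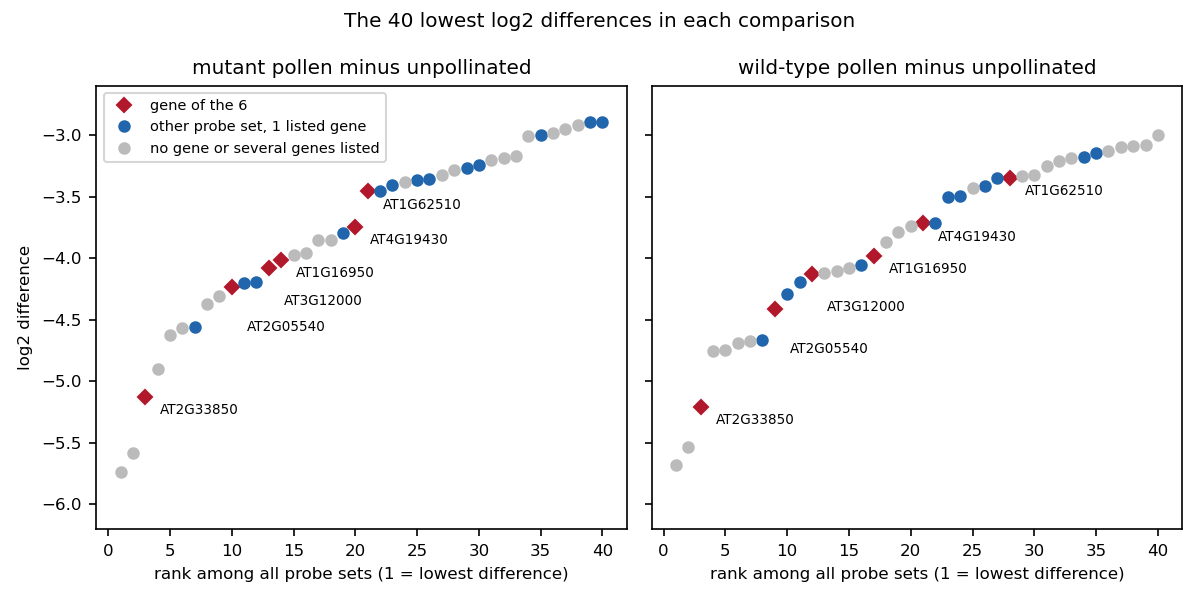
The 40 lowest log2 differences from unpollinated pistils (vertical axis) by rank among all probe sets (horizontal axis), with mutant pollen on the left and wild-type pollen on the right. Diamonds mark the 6 genes, blue circles other probe sets with 1 listed gene and grey circles those with none or several. AT2G33850 has rank 3 in both panels, and AT1G62510 has rank 21 on the left and rank 28 on the right.

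Pollen without the 3 MYB factors was set against wild-type pollen to ask whether the level after pollination differed between them. None of the 6 genes differed between the 2 kinds of pollen in limma at an adjusted p under 0.05, and none at an unadjusted p under 0.05 either. Over all probe sets 0.312% passed, so few genes of any kind did. The log2 differences, mutant minus wild-type, were 0.18 ± 0.37 for AT2G05540, 0.08 ± 0.18 for AT2G33850, 0.04 ± 0.18 for AT3G12000, -0.03 ± 0.26 for AT4G19430, -0.03 ± 0.17 for AT1G16950 and -0.11 ± 0.15 for AT1G62510 (SE, n = 3 per group, limma adjusted p = 0.998 for each). The arrays of the 2 groups overlapped for every gene. Both pollinated groups had entered the choice of the genes through their low level, which favours a small difference between them. That none passed is therefore not independent of the choice.

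A missed threshold does not show that the levels were equal. The intervals give how far apart the array signals may be. For AT1G62510 and AT1G16950, whose signal after pollination is not known to be above background, they set no limit on a difference in transcript level. Since no detection calls were used, the same holds for AT3G12000 and AT2G05540, which were also dim after pollination. For AT2G33850 and AT4G19430 the background is not known either. In the fit of all groups, the 95% interval was taken for the signal with mutant pollen, as a percentage of that with wild-type pollen. It was 79.7% to 140% for AT2G33850, 77.7% to 137% for AT3G12000 and 73.1% to 117% for AT1G62510. It was 75.8% to 126% for AT1G16950, 65.9% to 146% for AT4G19430 and 64.4% to 199% for AT2G05540. That fit takes its spread from all 3 groups, the unpollinated arrays included. Fitted with the 2 pollinated groups alone, the intervals were narrower, from 85.5% to 131% for AT2G33850, from 84.1% to 127% for AT3G12000, from 80.1% to 107% for AT1G62510, from 84.1% to 114% for AT1G16950, from 82.0% to 118% for AT4G19430 and from 84.4% to 152% for AT2G05540. The limma adjusted p was then 0.923 to 0.986. Without mutant array 2 the log2 differences ran from -0.13 to 0.35, with limma adjusted p values of 0.956 to 0.998.

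**Figure D3:**
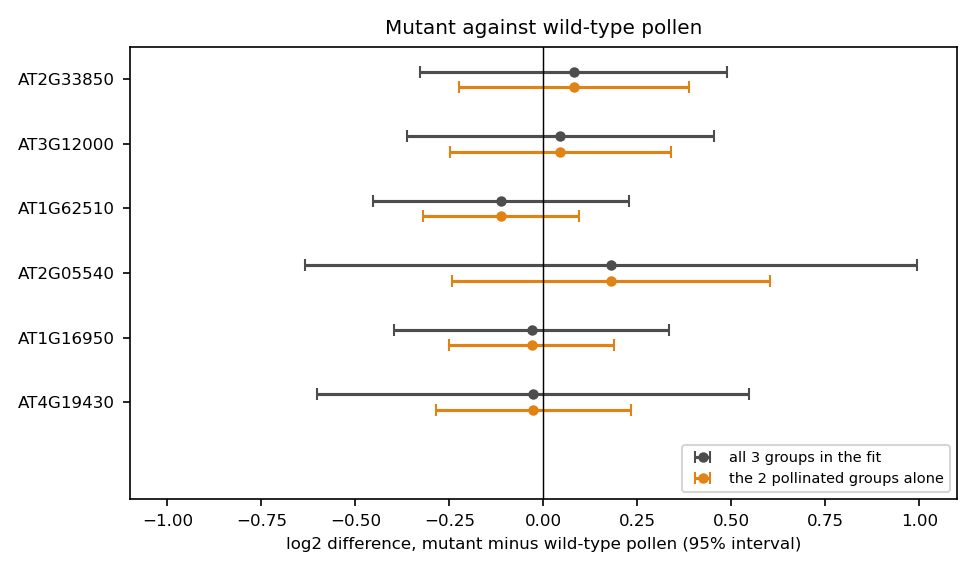
Log2 difference between mutant and wild-type pollen (horizontal axis) for each gene (vertical axis), with 95% intervals from the fit of all 9 arrays (grey) and from the 2 pollinated groups alone (orange). Positive values are higher with mutant pollen. Every interval holds 0, and the widest, 64.4% to 199% on the linear scale, is that of AT2G05540.

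The 6 genes spread more between unpollinated arrays than between pollinated ones. For AT2G05540 the SD of the log2 values was 0.44 with mutant pollen, 0.01 with wild-type pollen and 0.90 in unpollinated pistils. For AT4G19430 it was 0.17, 0.16 and 0.65 in the same order. The other 4 genes had an SD of 0.35 to 0.39 in unpollinated pistils, against 0.06 to 0.27 in the pollinated groups. The unpollinated SD was the largest of the 3 for 6 of 6 genes. It was also the largest for 70 of 94 other probe sets that were lower by a log2 of 2 or more with both kinds of pollen, and for 45.5% of all probe sets. How much of this follows from the brighter unpollinated signal was not tested.

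The unpollinated arrays did not order the 6 genes in 1 way. Array 3 was the lowest of its group for 5 of 6 genes, by 1.03 under the group mean for AT2G05540 and by 0.69 for AT4G19430 on the log2 scale. AT1G62510 was lowest in array 2 instead. AT1G62510, AT1G16950 and AT2G05540 were highest in array 1, at 0.40, 0.44 and 0.65 above their group means, while AT3G12000, AT4G19430 and AT2G33850 were highest in array 2, at 0.44, 0.61 and 0.33. Among the other 94 steep probe sets array 3 was the lowest for 45 (47.9%), against 35.4% of all probe sets. No unpollinated array decided a difference, which the choice of steep differences favours. Leaving out array 3 gave the largest shift, for AT2G05540, with log2 differences of -4.75 with mutant pollen and -4.93 with wild-type pollen, a change of 1.43-fold.

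**Figure D4:**
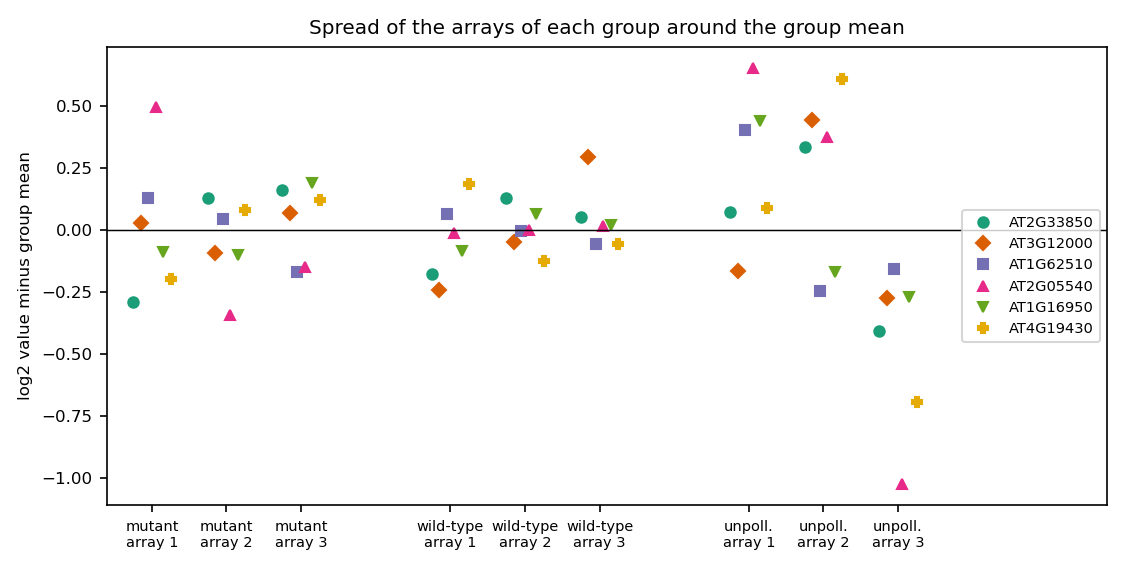
Deviation of each array (horizontal axis) from the mean of its group in log2 units (vertical axis), with 1 symbol per gene. Unpollinated array 3 lies below its group mean for all 6 genes, down to -1.03 for AT2G05540, while no array with wild-type pollen lies more than 0.29 from its mean.

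Family lists were drawn up for 3 of the 6 genes, and each list had other measured members. Relatives of AT2G33850, AT1G16950 and AT4G19430 were not looked for. Since the 3 genes were selected on a steep difference, their place below relatives that were not is fixed by the choice and is no result about the families. The S-domain family holds the S-locus glycoproteins and the receptor kinases with a like extracellular part. Apart from AT3G12000, 31 of 45 listed members were measured. With mutant pollen 10 rose, 2 fell and 19 did not pass (median log2 difference 0.05), and with wild-type pollen 8 rose, 4 fell and 19 did not pass (median 0.04). Over all probe sets, 22.3% rose and 19.2% fell with mutant pollen, and 23.4% rose and 20.2% fell with wild-type pollen. Over the alternatives, 0 to 4 genes of the family fell with mutant pollen and 0 to 6 with wild-type pollen, and 2 to 10 rose with each. The lowest of these counts came with dim probe sets left out. Dim probe sets have little room to fall, so a gene that did not fall may have been too dim to show it. AT5G18470, for a lectin-like protein, rose by a log2 difference of 2.74 ± 0.13 with mutant pollen and 2.99 ± 0.13 with wild-type pollen. SD1-29, the receptor kinase known as LORE that senses bacterial hydroxy fatty acids, rose by 1.26 ± 0.09 and 1.21 ± 0.09 with the same 2 kinds of pollen, AT1G61490 by 1.00 ± 0.14 and 0.98 ± 0.14, and AT1G61360 by 0.92 ± 0.07 in both. The lowest other member in the family was AT5G35370, which fell, with log2 differences of -0.49 ± 0.10 with mutant pollen and -0.52 ± 0.10 with wild-type pollen.

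The hybrid proline-rich proteins are relatives of AT1G62510 in which a lipid transfer-like part follows a proline-rich stretch, and 8 of 21 others were measured. With mutant pollen 3 fell and none rose, with a median log2 difference of -0.66, and with wild-type pollen 4 fell and none rose, with a median of -0.68. AT4G12530 fell, with log2 differences of -1.41 ± 0.29 with mutant pollen and -1.31 ± 0.29 with wild-type pollen. AT2G10940 fell with both kinds of pollen, at -1.04 ± 0.17 with mutant pollen. AT1G62500 fell, at -0.94 ± 0.09 with mutant pollen and -1.08 ± 0.09 with wild-type pollen. AT2G45180 had a log2 difference of -1.41 ± 0.53 with mutant pollen, which did not pass (limma adjusted p = 0.0548), and fell with wild-type pollen, at -1.76 ± 0.53 (limma adjusted p = 0.0211). It passed with mutant pollen under 6 alternatives. With wild-type pollen the call ended under 5, when array 1 or array 2 of the unpollinated pistils or array 2 or array 3 with wild-type pollen was left out and with a trended, robust prior (highest limma adjusted p = 0.0874). The other 4 measured members had log2 differences of -0.38 to -0.03 with mutant pollen and -0.35 to 0.004 with wild-type pollen and did not pass. Some of these probe sets were dim already in unpollinated pistils, with a mean log2 value as low as 3.46, which left little room for a fall. Without unpollinated array 3, AT4G22460 among them passed as lower with both kinds of pollen, and 5 genes of the family fell with mutant pollen and 5 with wild-type pollen. None of 3 measured classical lipid transfer protein genes, of 12, passed with either kind of pollen (median -0.27 with mutant and -0.08 with wild-type pollen). Without unpollinated array 1, AT5G01870 fell with both kinds of pollen, and without unpollinated array 3, AT2G18370 fell with mutant pollen.

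Of 22 other glycine-rich protein genes 10 were measured. With mutant pollen 2 rose and 2 fell, and with wild-type pollen 1 rose and 2 fell, with medians of -0.07 and 0.01. AT4G30460 fell, with log2 differences of -0.99 ± 0.17 with mutant pollen and -1.01 ± 0.17 with wild-type pollen, as did AT1G04660, at -0.61 ± 0.14 and -0.55 ± 0.14. AT2G05580, which lies next to AT2G05540 among the annotated protein-coding genes, rose by 0.41 ± 0.13 with mutant pollen and 0.37 ± 0.13 with wild-type pollen. Its calls ended under 6 and 8 alternatives, array medians subtracted and renewed quantile normalization among them (highest limma adjusted p = 0.178 and 0.302). AT2G05530, the neighbour on the other side, had log2 differences of 0.22 ± 0.07 and 0.08 ± 0.07, of which the first passed and its call ended under 8 alternatives (highest limma adjusted p = 0.972).

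Neighbouring genes were looked at for the others too. Of the 12 protein-coding genes directly beside the 6 in the annotation, 5 were measured. Of these, 3 rose and 1 fell with mutant pollen and 2 rose and 1 fell with wild-type pollen. Over all probe sets, 22.3% rose and 19.2% fell with mutant pollen, and 23.4% rose and 20.2% fell with wild-type pollen. The rises include those of AT2G05530 and AT2G05580, whose calls ended under several alternatives, as given above. The gene that fell was AT1G62500, which directly precedes AT1G62510 and is the family member named above. A list of nearby loci, which is not limited to adjacent genes and leaves out AT2G05580, had 7 of 13 members measured, of which 2 rose and 2 fell with mutant pollen and 1 rose and 2 fell with wild-type pollen. Its other gene that fell was AT1G62520, which is not adjacent, at -0.67 ± 0.14 with mutant pollen and -0.76 ± 0.14 with wild-type pollen. AT4G19440, next to AT4G19430, rose by 0.57 ± 0.08 and 0.50 ± 0.08, from a dim mean log2 value of 3.59 in unpollinated pistils. It is not known whether that signal was above background. With dim probe sets left out, 0 genes of the list of nearby loci rose with either kind of pollen. AT3G12010, next to AT3G12000, had log2 differences of 0.10 ± 0.07 and 0.08 ± 0.07 and did not pass.

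**Figure D5:**
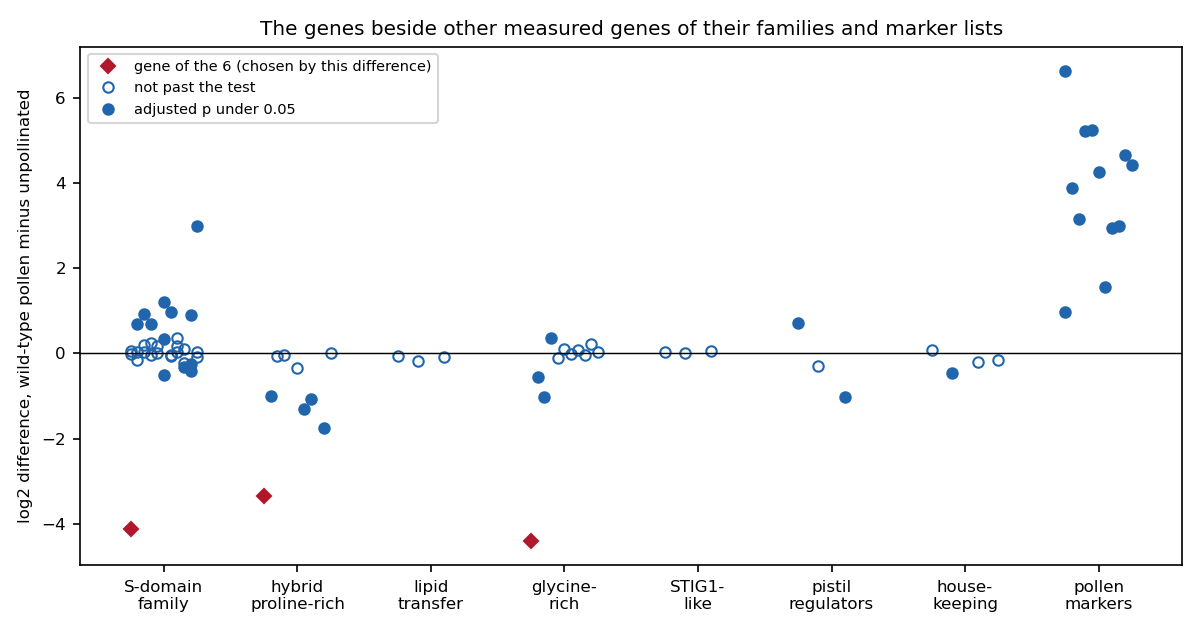
Log2 difference between wild-type pollen and unpollinated pistils (vertical axis) for the measured genes of each family or marker list (horizontal axis), 1 symbol per gene. Diamonds are AT3G12000, AT1G62510 and AT2G05540, filled circles passed at an adjusted p under 0.05 and open circles did not. The lowest circle is AT2G45180 at -1.76, and the diamonds, which were selected on this difference, lie at -4.13, -3.34 and -4.41.

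Other pistil markers were also looked at. The STIG1-like genes, named for a stigma-specific protein of tobacco, had 3 of 6 members measured, none of which passed. Their summed intensity was 37.6 to 39.1 with mutant pollen, 39.4 to 41.8 with wild-type pollen and 36.6 to 41.9 in unpollinated pistils, so these probe sets were dim in every group. Of the pistil regulators, 3 of 17 were measured in the sense given above, so most of the list was not looked at. CES, a bHLH factor of transmitting tract development, fell, with log2 differences of -0.87 ± 0.25 with mutant pollen and -1.01 ± 0.25 with wild-type pollen. The call with mutant pollen ended when array 1 or array 2 of the unpollinated pistils or array 2 or array 3 with mutant pollen was left out (highest limma adjusted p = 0.0693). SPT, another bHLH factor of the transmitting tract, rose by 0.64 ± 0.09 with mutant pollen and 0.71 ± 0.09 with wild-type pollen. INO, a factor of the outer layer of the ovule, had log2 differences of -0.22 ± 0.11 and -0.30 ± 0.11 and did not pass, though it did under 3 and 6 alternatives. Of 4 measured housekeeping genes, of 10, PEX4 fell, at -0.50 ± 0.07 with mutant pollen and -0.46 ± 0.07 with wild-type pollen, and the median log2 difference of the 4 was -0.18 and -0.17. With array medians subtracted 3 of the 4 fell with each kind of pollen. Between mutant and wild-type pollen 0 genes passed in any of the 9 lists.

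Likeness to the 6 genes was measured by the root mean square difference between log2 profiles over the 9 arrays, each centred on its own mean. The step between pollinated and unpollinated arrays makes up most of such profiles, so genes with steps of like size come out close. Among the 6 genes the closest pair was AT3G12000 and AT1G16950, at 0.32, followed by AT3G12000 and AT4G19430, also at 0.32, and the most distant pair was AT2G33850 and AT1G62510, at 0.89. The gene closest to AT2G33850 was the ACC oxidase gene AT1G12010 at 0.43, followed by AT3G12000 at 0.54 and AT1G33055 at 0.57. AT1G12010, whose product makes ethylene, was also closest to AT2G05540, at 0.36. AT1G33055 was closest to AT1G16950, at 0.30. The peroxidase gene AT5G19880 was closest to AT4G19430, at 0.24, and PAP85, of the cupin family, was closest to AT1G62510, at 0.31. AT5G19880 was also among the 3 closest of AT1G62510 at 0.33, AT2G05540 at 0.41 and AT1G16950 at 0.31, and AT1G33055 among those of AT3G12000 at 0.35 and AT2G05540 at 0.40.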

How the data were processed

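Array intensity had been measured in 9 pistil samples, 3 per group. The deposited values were RMA intensity values per probe set on a linear scale, from 6.4 to 27175.1. RMA, Partek and the Affymetrix Expression Console are named, per the submitters' processing notes, with no version given. Of 22810 probe sets, 64 controls were left out, and no filter on low values was applied. Genes were named through the platform annotation, for probe sets with 1 listed gene (13513), and through the reference annotation TAIR10.1.

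Log2 was taken, and limma 3.58.1 in R 4.3.3 was fitted to all arrays with 1 mean per group (6 residual and 4.24 prior degrees of freedom). P-values were adjusted by Benjamini-Hochberg over all probe sets, with a threshold of 0.05. The fit was tested on simulated data. Intervals cover 95%, and the number of arrays limits their precision. Same-numbered replicates correlated in their deviations from group means at -0.16 to 0.31 over 9 pairs, and differently numbered ones at -0.37 to 0.17. The numbers were not taken to pair samples, though these ranges cannot show that no pairing existed.

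The members and gene lists were chosen with earlier results of these data known. Named genes were the 6, the steeper genes, the 3 closest to each, and up to 4 passing genes per list. AT5G51440, AT5G35370, INO, AT2G05530, AT3G12010, AT4G22460, AT5G01870 and AT2G18370 were looked at in addition, after their values had been seen. A planned search for promoter motifs was not run, since no sequences were used here. Alternatives covered scaling, pseudocount, dim probe sets, the replicate number, the variance prior, the groups in the fit and each array left out.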

Additional observations from a re-analysis of the deposited data

How the results depend on the processing

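For the 6 genes, the differences from unpollinated pistils were below 0 under every alternative run. The genes were selected on these differences from the same arrays, so this sign follows from the choice and is no separate evidence. Their median log2 difference with mutant pollen was -4.05 and ran from -4.18 to -3.85 with each array left out, and with wild-type pollen it ran from -4.19 to -3.92. With 16 units added before log2 it was -3.34 in both comparisons. With dim probe sets left out AT2G33850 alone remained, at -5.13 with mutant and -5.21 with wild-type pollen, values that this filter cannot change. Between mutant and wild-type pollen 0 of 6 genes passed under every alternative. With single arrays left out, the log2 difference ran from -0.0095 to 0.23 for AT2G33850, from -0.076 to 0.19 for AT3G12000, from -0.069 to 0.35 for AT2G05540, from -0.13 to 0.019 for AT1G16950 and from -0.091 to 0.073 for AT4G19430, which includes changes of sign, and from -0.18 to -0.028 for AT1G62510. Every group holds the same 3 replicate numbers, so the replicate block cannot change a difference. AT2G33850 stayed at 0.08 between mutant and wild-type pollen (limma adjusted p = 0.997), and no call of the 6 genes changed.

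Over all probe sets, 5083 were higher and 4367 lower with mutant pollen, and 5328 and 4596 with wild-type pollen. With array medians subtracted, which shifts every log2 difference by -0.11 with mutant and -0.14 with wild-type pollen, 3578 were higher and 6633 lower with mutant pollen, and 3607 and 7579 with wild-type pollen. After renewed quantile normalization these counts were 4280 and 5496 with mutant pollen and 4510 and 5854 with wild-type pollen. With single arrays left out, 4305 to 5007 were higher and 3521 to 4379 lower with mutant pollen, and 4464 to 5344 and 3527 to 4591 with wild-type pollen. With dim probe sets left out, 2821 were higher and 2796 lower with mutant pollen, and 3081 and 2888 with wild-type pollen. Between mutant and wild-type pollen 6 were higher and 65 lower, against 0 and 3 with dim probe sets left out, 11 higher with these groups alone, and 3 to 16 higher and 32 to 69 lower with single arrays left out. Fewer were lower without wild-type array 1 (39), 2 (33) or 3 (42) or mutant array 1 (33) or 3 (32), and the number higher was 16 without unpollinated array 3 and 3 without wild-type array 1 or mutant array 3. The replicate block gave 9 higher and 58 lower. The labels of same-numbered samples share only a number, and whether such samples shared a batch is not known. The causes were not tested, except that dim probe sets left out means fewer tested.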
